A study of Mus musculus with 4 samples.

Results

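Chemokines are small secreted proteins that attract and position leukocytes, glia and neurons by acting on G protein-coupled receptors, and they are sorted by the spacing of their first cysteines into the CC and CXC families. The Ccl, Cxcl, Ccr and Cxcr genes were followed here in RNA-seq libraries of cultured mouse astrocytes. Members were the genes listed as protein-coding whose symbol starts with Ccl, Cxcl, Ccr or Cxcr and a number, and the rule used no measured value. It gave 38 genes of the 25393 listed, of which 16592 were protein-coding. These were 29 ligands and 9 receptors.

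Most CC and CXC ligands are inducible: stimulated astrocytes, microglia and macrophages switch them on through NF-kB, interferon and related pathways, and the ligands then recruit blood leukocytes into the brain. A smaller number, such as Cxcl12 and Cxcl14, are made constitutively and take part in development and tissue upkeep. The CC receptors are carried mainly by leukocytes and microglia, whereas the CXC receptor Cxcr4 is also found on neural progenitors, glia and vascular cells.

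The libraries came from untreated primary astrocytes of C57BL/6 pups of both genotypes, wild type (WT) and tet1-/-, a knockout of Tet1, an enzyme that oxidizes methylated cytosine in DNA. The labels name no driver that would limit the knockout to astrocytes, so other cells of a culture would carry it too. There were 2 libraries per genotype. Cortex and hippocampus of postnatal day 1 pups were used, with 2 mice per isolation. The cells were grown for about 7 days, shaken at 260 rpm and collected 24 h later. The labels do not say that the libraries of a genotype came from separate cultures, so the errors and p-values measure only the spread between these libraries.

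Some library-level values preceded the comparison. Reads on genes numbered 18749610 to 22673555 per library. Tet1 was not lower under the knockout label, with 266 and 121 normalized counts in WT against 173 and 463 (limma log2 difference 0.66, SE 0.65, adjusted p = 0.691). The deposited values sum over the whole gene and do not show whether a deleted exon was read. The libraries are therefore called WT and labelled KO throughout. The Y-linked gene Ddx3y was at 1484 and 398 normalized counts in WT, at 0 in labelled KO replicate 1 and 314 in labelled KO replicate 2, and Xist was at 8.54 and 0.92 against 2896 and 13367, so the labels also differed in sex-linked transcripts. Genotype label and these differences cannot be told apart. The labelled KO libraries lay farther from each other than the WT libraries did, with a median chi-square per gene of 19.7 against 6.48, where equal libraries give 0.455.

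The comparison asked how the family differed between the genotype labels. The family held 12 inflammatory CC, ELR CXC and interferon-induced ligands with a mean of at least 10 normalized counts. For 10 of them both labelled KO libraries were lower than both WT libraries, beside 24.9% of all genes of that level. Among all 21 members of that level the count was 15. Labelled KO replicate 1 was the lowest library for 10 of the 12, the exceptions being Ccl6 and Ccl12. It was the lowest for 14 of the 21 members, beside 24.3% of all genes of that level. A normalized count is a read count divided by 1 size factor per library, and 1 read was worth 0.901 to 1.07 of it. The limma fit covered 22094 genes whose mean was 1 normalized count or more, which included 33 of the 38 members, 26 ligands and 7 receptors. At an adjusted p under 0.05, limma called 0.0% of the genes tested and 0 of the 33 members. The same fit had 3032 genes at an unadjusted p under 0.05, and edgeR on the recovered reads called 0 genes at an adjusted p under 0.05, with 2733 at an unadjusted p under 0.05. At an unadjusted p under 0.05, 13 of the 33 members were lower under the KO label, beside 9.18% of all genes tested, and 1 member was higher, beside 4.54%. DESeq2 on the same reads gave an adjusted p for 21 members, and 6 of them were lower at an adjusted p under 0.05, beside 4.8% of all genes with an adjusted p. DESeq2 called 0 members higher, beside 1.69%. In edgeR, 11 of 33 members were lower at an unadjusted p under 0.05, beside 8.14% of genes. The 6 members called by DESeq2 were Cxcl5, Ccl6, Ccl27a, Ccl9, Ccl3 and Ccl12. Leaving out a library moved these counts and those of all genes. DESeq2 called 3 members lower without WT replicate 1, beside 1.56% of genes, and Cxcl5 alone without WT replicate 2, beside 1.13%. It called 7 without labelled KO replicate 1, beside 11.8%, and 13 without labelled KO replicate 2, beside 6.71%. The unadjusted limma count was 4 members without WT replicate 1, beside 3.82% of genes, and 3 without WT replicate 2, beside 4.18%. It was 10 without labelled KO replicate 1, beside 13.7%, and 15 without labelled KO replicate 2, beside 9.69%.

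The median log2 difference, labelled KO minus WT, was -1.83 over the members tested and -0.068 over all genes tested. Both labelled KO libraries lay below both WT libraries for 21 of 33 members, beside 25.4% of all genes tested. Both lay above for 2 members, Cxcl14 and Ccl17, beside 22.5%. The 21 members with a mean of at least 10 normalized counts are described below with their values, and of these 19 had a negative difference and 2 a positive one, beside 50.8% negative among all genes of that level. An exact permutation test of 2 libraries against 2 cannot give a two-sided p below 0.333, so no single member was tested that way.

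**Figure D1:**
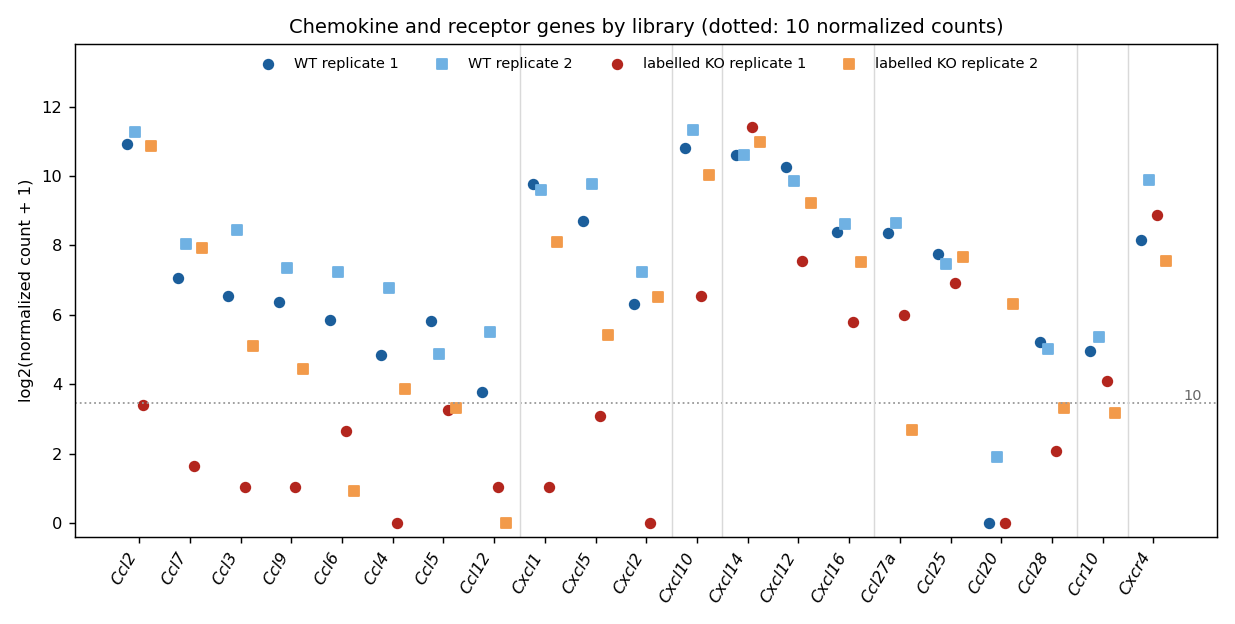
The 21 members with a mean of at least 10 normalized counts, 1 point per library, on a log2(normalized count + 1) axis, with vertical lines between the groups of ligands and receptors in the order of the text. Labelled KO replicate 1 was at or under 10 normalized counts for all 8 inflammatory CC ligands and all 3 ELR CXC ligands, whereas Cxcl14 was above WT in both labelled KO libraries.

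**Figure D2:**
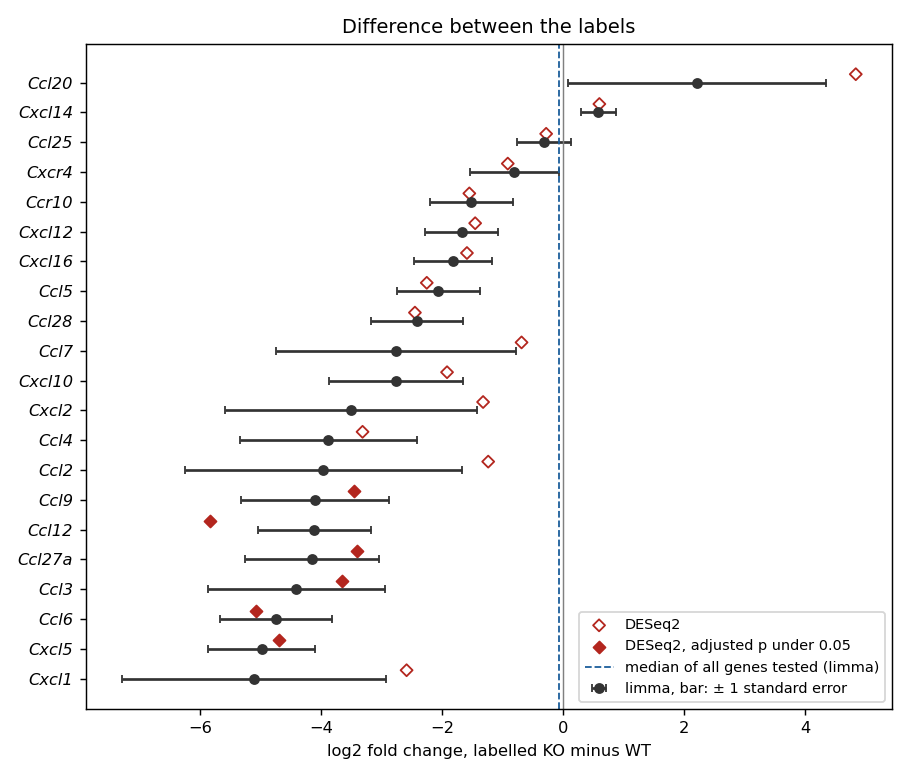
The log2 difference, labelled KO minus WT, of the same 21 members. Black points are limma values with bars of 1 standard error, diamonds are DESeq2 values on the recovered reads, filled where the DESeq2 adjusted p was under 0.05, and the dashed line is the limma median of all genes tested at -0.068. The filled diamonds are Cxcl5, Ccl6, Ccl3, Ccl27a, Ccl12 and Ccl9.

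The inflammatory CC ligands attract monocytes, macrophages and T cells. Of 12 members, 10 were tested. At an unadjusted p under 0.05, 6 were lower and 0 higher, beside 9.18% and 4.54% of all genes tested. Both labelled KO libraries were below both WT libraries for 8, beside 25.4%. Ccl2 (ENSMUSG00000035385, chr11:82035571-82037453, mm10), the main monocyte attractant, was at 1955 and 2474 normalized counts in WT. It was at 9.63 in labelled KO replicate 1 and at 1868 in labelled KO replicate 2. The groups did not overlap, but replicate 2 was at 84.3% of the WT mean and replicate 1 at 0.435%. The log2 difference was -3.96 (SE 2.29, limma adjusted p = 0.499), and it went from -7.69 without labelled KO replicate 2 to -0.24 without labelled KO replicate 1. Ccl7, a monocyte attractant encoded next to Ccl2, was at 132 and 260 normalized counts in WT against 2.14 and 242. Its groups overlapped, and the log2 difference of -2.76 (SE 1.99, limma adjusted p = 0.584) became 0.38 without labelled KO replicate 1.

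Ccl3 and Ccl4, the macrophage inflammatory proteins, were low in both labelled KO libraries. Ccl3 was at 91.8 and 347 normalized counts in WT and at 1.07 and 33.3 in the labelled KO libraries. Its log2 difference was -4.41 (SE 1.47, limma adjusted p = 0.314) in limma and -3.66 (DESeq2 adjusted p = 0.0282) on the reads. Ccl4 was at 27.7 and 109 normalized counts in WT against 0 and 13.5, a log2 difference of -3.88 (SE 1.47, limma adjusted p = 0.355). For both genes the groups did not overlap, and the WT libraries themselves differed by 3.78-fold for Ccl3. Ccl5, which attracts T cells and monocytes, was at 55.5 and 28.5 normalized counts in WT against 8.56 and 9.01. Here the labelled KO libraries were alike, and the log2 difference was -2.06 (SE 0.68, limma adjusted p = 0.314).

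Ccl6 and Ccl9 are Ccr1 ligands of rodents made by myeloid cells. Ccl6 was at 56.5 and 149 normalized counts in WT against 5.35 and 0.901, the last being 1 read. Its log2 difference was -4.74 (SE 0.93, limma adjusted p = 0.171), with a DESeq2 adjusted p of 8.48e-05. Ccl9 was at 81.1 and 162 normalized counts in WT against 1.07 and 20.7, a log2 difference of -4.11 (SE 1.22, limma adjusted p = 0.279), with a DESeq2 adjusted p of 0.0235. Neither gene's groups overlapped. Ccl12, a Ccr2 ligand of mice, was at 12.8 and 44.1 normalized counts in WT against 1.07 and 0. That was 60 reads over the WT libraries and 1 over the labelled KO libraries, a ratio of 60.6 per unit of library size with an exact 95% interval of 10.5 to 2431 that covers counting error only. The DESeq2 adjusted p was 0.0324, and limma gave -4.12 (SE 0.94, adjusted p = 0.206).

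The ELR CXC ligands carry a glutamate-leucine-arginine motif and attract neutrophils through Cxcr2. Of 4 members, Cxcl5, Cxcl1 and Cxcl2 were tested. At an unadjusted p under 0.05, 1 was lower, beside 9.18% of all genes tested. Cxcl5 (ENSMUSG00000029371, chr5:90759360-90761624) was at 414 and 867 normalized counts in WT and at 7.49 and 41.5 in the labelled KO libraries. It was low in both labelled KO libraries, at 1.17% and 6.47% of the WT mean. Its limma log2 difference was -4.98 (SE 0.88, limma adjusted p = 0.154), the lowest adjusted p of any member, and its DESeq2 adjusted p was 9.39e-07. Cxcl1 (ENSMUSG00000029380, chr5:90891241-90893115) was at 869 and 769 normalized counts in WT against 1.07, a single read, and 271. The groups did not overlap, and the log2 difference was -5.11 (SE 2.18, limma adjusted p = 0.390), from -8.63 without labelled KO replicate 2 to -1.59 without labelled KO replicate 1. Cxcl2 was at 77.9 and 150 normalized counts in WT, at 0 in labelled KO replicate 1 and at 91.0 in labelled KO replicate 2. Replicate 2 lay between the WT libraries, and the log2 difference was -3.51 (SE 2.08, limma adjusted p = 0.510), or -0.25 without labelled KO replicate 1.

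Cxcl10 (ENSMUSG00000034855, chr5:92346638-92348889) is an interferon-induced ligand of Cxcr3 that attracts activated T cells. It was at 1790 and 2543 normalized counts in WT and at 93.1 and 1053 in the labelled KO libraries. Both labelled KO libraries were below WT, at 4.30% and 48.6% of the WT mean. The log2 difference was -2.76 (SE 1.11, limma adjusted p = 0.366), and it was -1.02 without labelled KO replicate 1.

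The 250 bases before the RefSeq start were read for members on GRCm38.p6, the build the files call mm10, since many inducible ligands share regulatory motifs there. Promoters were found for 25 member symbols, 14 of them among the 21 above. The NF-kB motif was present on either strand in 8 of the 25, or 32%, beside 4.46% of 27025 genes. The interferon-stimulated response element, searched on both strands as TTTC, any 2 bases and TTTC, was present in Cxcl10 and Cxcl14, or 8% of the 25, beside 3.46% of genes. A match is a run of letters, not a measured binding site, and the absence of one says nothing about the factor. The promoters of Ccl9 (chr11:83578637-83578886, minus strand), Cxcl10 (chr5:92348890-92349139, minus strand), Cxcl1 (chr5:90890995-90891244, plus strand), Cxcl2 (chr5:90903649-90903898, plus strand) and Ccl20 (chr1:83116516-83116765, plus strand) are printed because they hold NF-kB matches in ligands that were more than 4 times higher in labelled KO replicate 2 than in replicate 1, or at 0 in replicate 1. They run 5′ to 3′, with the start just after the last base and matched letters in capitals.
Ccl9: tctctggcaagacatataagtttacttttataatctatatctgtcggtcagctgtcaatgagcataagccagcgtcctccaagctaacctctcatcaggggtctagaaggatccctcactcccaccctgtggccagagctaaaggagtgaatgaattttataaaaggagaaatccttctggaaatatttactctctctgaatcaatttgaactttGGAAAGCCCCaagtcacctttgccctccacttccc
Cxcl10: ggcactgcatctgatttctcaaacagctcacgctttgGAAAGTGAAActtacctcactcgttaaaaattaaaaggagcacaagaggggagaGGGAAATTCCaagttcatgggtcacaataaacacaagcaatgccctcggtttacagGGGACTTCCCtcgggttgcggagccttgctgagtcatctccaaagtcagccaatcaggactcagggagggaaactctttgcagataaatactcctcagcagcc
Cxcl1: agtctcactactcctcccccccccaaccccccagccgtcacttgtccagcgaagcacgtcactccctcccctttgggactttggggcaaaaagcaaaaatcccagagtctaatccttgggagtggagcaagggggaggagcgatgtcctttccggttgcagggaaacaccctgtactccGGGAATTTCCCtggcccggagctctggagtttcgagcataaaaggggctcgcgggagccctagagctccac
Cxcl2: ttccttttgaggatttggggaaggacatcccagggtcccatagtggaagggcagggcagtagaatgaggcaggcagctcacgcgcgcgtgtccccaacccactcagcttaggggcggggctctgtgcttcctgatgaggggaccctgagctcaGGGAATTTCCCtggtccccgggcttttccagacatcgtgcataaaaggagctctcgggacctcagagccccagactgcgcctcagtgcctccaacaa
Ccl20: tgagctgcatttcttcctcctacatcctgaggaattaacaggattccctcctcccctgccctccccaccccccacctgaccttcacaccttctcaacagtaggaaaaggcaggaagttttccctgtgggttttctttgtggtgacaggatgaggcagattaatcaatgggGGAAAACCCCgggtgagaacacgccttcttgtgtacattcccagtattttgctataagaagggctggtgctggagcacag
In Cxcl10 the NF-kB matches began 159 and 103 bases before the start and the interferon match 213 bases before it. Cxcl1 held overlapping NF-kB matches at 71 and 70 bases, and Cxcl2 at 97 and 96 bases. Ccl9 and Ccl20 held 1 match each, at 35 and 80 bases. The printed promoters were picked by motif and by level. Ccl3, which was 31.2 times higher in labelled KO replicate 2 than in replicate 1, had its promoter read and held no NF-kB match. No promoter was found for Ccl2, Ccl7, Ccl4 or Cxcl5, which also met the rule on level. Whether the motif goes with the difference between the replicates was not tested. The deposited Cxcl2 gene begins at 90903871, upstream of the RefSeq start, so the last bases of that window lie inside the deposited gene.

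The remaining CXC ligands include the constitutively made Cxcl12 and Cxcl14. The sum of the 4 members, Cxcl17 included, was similar between the libraries, at 98.1% and 93.6% of the WT mean in the labelled KO libraries. The members did not move alike. Cxcl14 (ENSMUSG00000021508, chr13:56288643-56296551), an epithelial and neural ligand, was at 1554 normalized counts in each WT library and at 2694 and 2015 in the labelled KO libraries. Both labelled KO libraries were above WT, with a log2 difference of 0.58 (SE 0.30, limma adjusted p = 0.452). Cxcl12 (ENSMUSG00000061353, chr6:117168535-117181367), the ligand of Cxcr4 that positions progenitors and interneurons, was at 1218 and 934 normalized counts in WT against 185 and 600. Cxcl16, a membrane-bound ligand of Cxcr6, was at 331 and 388 normalized counts in WT against 54.6 and 184. Both genes were below WT in both labelled KO libraries and lowest in replicate 1. The log2 differences were -1.67 for Cxcl12 (SE 0.60, limma adjusted p = 0.342) and -1.83 for Cxcl16 (SE 0.64, limma adjusted p = 0.335).

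Among the other CC ligands, 4 of 8 were lower at an unadjusted p under 0.05, beside 9.18% of all genes tested. Higher was 1 of the 8, beside 4.54%. Ccl27a, which attracts T cells to the skin through Ccr10, was at 325 and 397 normalized counts in WT and at 63.2 and 5.41 in the labelled KO libraries. Both labelled KO libraries were below WT, and replicate 2 was the lower one. The log2 difference was -4.15 (SE 1.11, limma adjusted p = 0.249), with a DESeq2 adjusted p of 0.00766. Ccl27a lies antisense within the span of Il11ra1, whose values were 2353 and 2377 in WT against 1968 and 485, so reads of the pair cannot be told apart where the counting did not use strand. Ccl27a also has a near-identical copy, Ccl27b, and a further entry on a separate scaffold. These had at most 10 reads in any library, and reads of Ccl27a could have been split among them. Ccl28, a mucosal Ccr10 ligand, was at 36.3 and 31.3 normalized counts in WT against 3.21 and 9.01. The groups did not overlap, and the log2 difference was -2.42 (SE 0.76, limma adjusted p = 0.293).

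Ccl25 and Ccl20 did not separate the labels. Ccl25, a thymic and intestinal ligand of Ccr9, was at 216 and 176 normalized counts in WT against 120 and 202, a log2 difference of -0.32 (SE 0.44, limma adjusted p = 0.785). Ccl20, the ligand of Ccr6, was at 0 and 2.76 normalized counts in WT and at 0 in labelled KO replicate 1, but at 79.3 in labelled KO replicate 2. That was 88 of the 91 reads in 1 library. Its log2 difference was 2.21 (SE 2.14, limma adjusted p = 0.681), and without labelled KO replicate 2 its mean was under the minimum for the test.

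Only 2 of the 9 receptors had a mean of at least 10 normalized counts. At an unadjusted p under 0.05, 0 of the 7 tested were lower and 0 higher, beside 9.18% and 4.54% of all genes tested. Cxcr4 (ENSMUSG00000045382, chr1:128588199-128592293), the Cxcl12 receptor, was at 283 and 948 normalized counts in WT against 468 and 186. The groups overlapped, and the WT libraries differed by 3.35-fold. The log2 difference was -0.81 (SE 0.74, limma adjusted p = 0.656), and it was 0.060 without WT replicate 2. Ccr10, the receptor for Ccl27a and Ccl28, was at 29.9 and 40.5 normalized counts in WT against 16.1 and 8.11. Both labelled KO libraries were below WT, with a log2 difference of -1.52 (SE 0.69, limma adjusted p = 0.413). The receptors summed to 340 and 1005 normalized counts in WT and to 504 and 206 in the labelled KO libraries, most of it Cxcr4.

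The leukocyte receptors were near the limit of detection. Ccr1 had 0 and 5 reads in WT against 2 and 0, and Cxcr6 had 12 and 6 against 2 and 5. Cxcr3, the Cxcl10 receptor, had 3 reads in WT replicate 1 and 0 elsewhere, and a count of 0 allows up to 3 reads, or 2.70 to 3.21 normalized counts, so differences of that size were not detectable at this depth. The 12 members tested with a mean under 10 had means of at most 6.24 normalized counts. The only member higher at an unadjusted p under 0.05 was among them, Ccl17, with 1 and 0 reads in WT against 4 and 12. The 5 members under a mean of 1 had 2 or 3 reads in all. A further 17 symbols of these families, among them Ccr2, Ccr7, Cxcr2, Cxcl9 and Cxcl13, were not analysed here.

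Levels were compared between genes per length, as FPKM computed from the recovered reads. In WT, Ccl2 was the most abundant member, at 85.9 and 104 FPKM. Cxcl10, at 39.7 and 54.2 FPKM, and Cxcl14, at 42.5 and 40.8 FPKM, came next, and their WT ranges overlapped. Cxcl1 followed at 23.2 and 19.7 FPKM, a range that lay inside that of Cxcr4, at 7.82 and 25.2 FPKM. The ranges of Cxcl5, at 11.1 and 22.3 FPKM, and Ccl3, at 5.99 and 21.7 FPKM, overlapped that of Cxcl1. In labelled KO replicate 1 the order of Ccl2, Cxcl10, Cxcl14, Cxcl1 and Cxcr4 was another. Cxcl14 was at 66.5 FPKM, Cxcr4 at 11.7, Cxcl10 at 1.87, Ccl2 at 0.38 and Cxcl1 at 0.026. Other members, such as Ccl27a at 1.20 FPKM, lay between Cxcl10 and Ccl2 there. In labelled KO replicate 2, Ccl2 was again first at 81.3 FPKM, ahead of Cxcl14 at 54.6 and Cxcl10 at 23.2.

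The labelled KO libraries differed from each other more for these genes than for most. Labelled KO replicate 1 was the lowest of the 4 libraries for 16 of 33 members tested, beside 25.6% of all genes tested. Among the 15 members with a mean of at least 50 normalized counts, 8 were more than 4 times higher in labelled KO replicate 2 than in replicate 1, beside 4.89% of genes at that level. They were Cxcl1, Ccl2, Ccl7, Ccl3, Ccl9, Cxcl10, Cxcl5 and Cxcl2. The fold between the replicates was 253 for Cxcl1, 194 for Ccl2, 113 for Ccl7 and 5.53 for Cxcl5, and Cxcl2 was at 0 in replicate 1. Cxcl5, Ccl3 and Ccl9 were low in replicate 2 as well, at 6.47%, 15.2% and 17.1% of the WT mean. Ccl2, Cxcl2 and Ccl7 were at 84.3%, 79.9% and 123% of it. Ccl27a and Ccl6 went the other way, at 1.5% and 0.877% of the WT mean in replicate 2 against 17.5% and 5.21% in replicate 1.

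**Figure D3:**
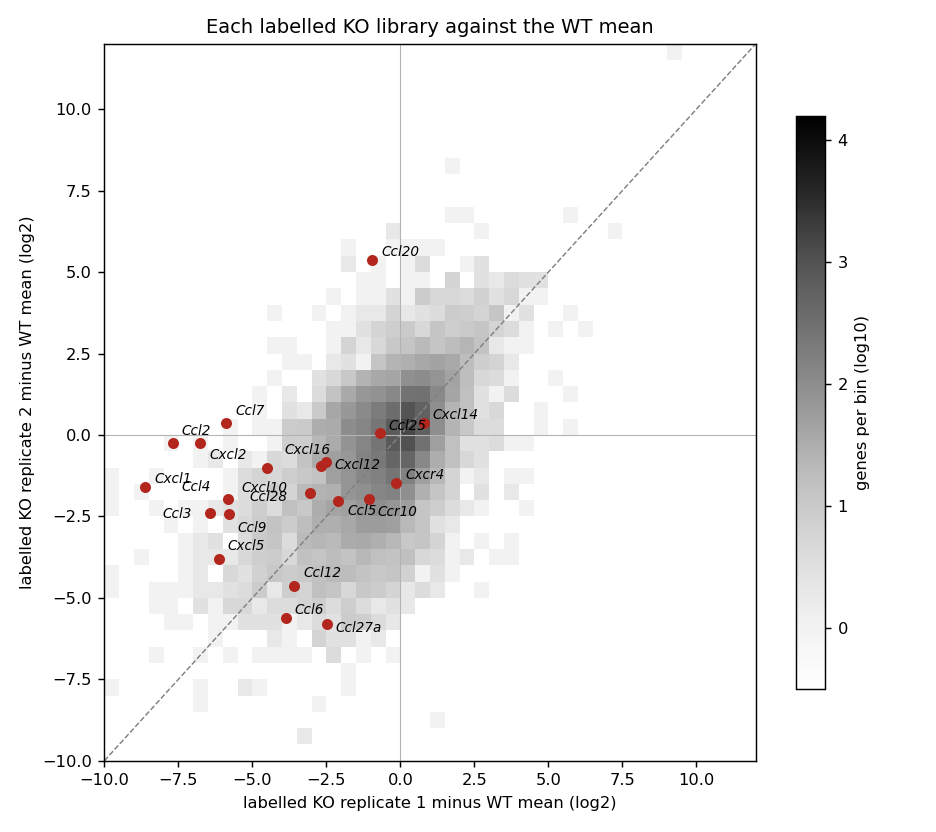
Log2 difference of each labelled KO library from the WT mean on the log2(normalized count + 1) scale, replicate 1 on the horizontal and replicate 2 on the vertical axis. Red points are the 21 members and grey squares the number of genes with a mean of at least 10 per bin on a log10 scale, with values under -10 drawn at the edge. Ccl2, Ccl7 and Cxcl2 lie at the left near a replicate 2 value of 0, Cxcl5, Ccl3, Ccl9 and Cxcl1 are below 0 on both axes, and Ccl20 stands above.

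Many inflammatory ligands lie in genomic clusters, and the clusters were compared by their sums. The 6 members at chr11:82035571-82305690, Ccl2, Ccl7, Ccl11, Ccl12, Ccl8 and Ccl1, summed to 2104 and 2788 normalized counts in WT against 15 and 2111. The 5 members at chr11:83525778-83664683, Ccl5, Ccl9, Ccl6, Ccl3 and Ccl4, summed to 313 and 795 against 16.1 and 77.5. Both clusters were low in labelled KO replicate 1, and in replicate 2 the latter was low while the former lay within the WT range. Within the former, Ccl12 was not near its WT values in replicate 2, since it had 0 reads there. The ELR cluster at chr5:90759360-90905938, with Cxcl5, Cxcl3, Cxcl1 and Cxcl2, summed to 1360 and 1789 normalized counts against 8.56 and 404.

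Related genes outside the 4 symbol groups were taken from a fixed list. Of 13 related chemokine-like ligands and atypical receptors, 10 were tested. At an unadjusted p under 0.05, 4 were lower and 0 higher, beside 9.18% and 4.54% of all genes tested. Rarres2, the leukocyte attractant chemerin, was at 842 and 666 normalized counts in WT against 143 and 13.5 (log2 difference -4.03, SE 1.08, limma adjusted p = 0.249). Cx3cr1, the fractalkine receptor of microglia, was at 112 and 349 against 23.5 and 11.7 (log2 difference -3.49, SE 0.75, limma adjusted p = 0.195). Ackr3, a scavenging receptor for Cxcl12, was at 558 and 1660 against 80.3 and 203 (log2 difference -2.90, SE 0.70, limma adjusted p = 0.222). All 3 were below WT in both labelled KO libraries, and Rarres2 and Cx3cr1 were lowest in replicate 2.

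Of 26 genes of chemokine receptor signalling, 8 were lower and 3 higher at an unadjusted p under 0.05, beside 9.18% and 4.54% of all genes tested. Of the higher ones, Rgs2 had a log2 difference of 2.52 (SE 0.64, limma adjusted p = 0.233). Rgs10 and Grk6 had 1.77 (SE 0.66, limma adjusted p = 0.352) and 1.15 (SE 0.32, limma adjusted p = 0.253). The 4 with the largest absolute difference at a mean of at least 10 were all lower and are leukocyte forms. Rac2, a small GTPase of blood cells, was at 154 and 441 normalized counts in WT against 7.49 and 26.1 (log2 difference -4.11, SE 0.84, limma adjusted p = 0.182). Dock2, an activator of Rac, was at 46.9 and 123 against 3.21 and 11.7 (log2 difference -3.40, SE 0.88, limma adjusted p = 0.237). Vav1 and Pik3r5, a Rac activator and a PI3K-gamma subunit, had log2 differences of -3.52 (SE 0.87, limma adjusted p = 0.227) and -3.90 (SE 1.31, limma adjusted p = 0.316). The groups did not overlap for any of the 4.

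Of 26 genes of the pathways that induce chemokines, 25 were tested. At an unadjusted p under 0.05, 10 were lower and 0 higher, beside 9.18% and 4.54% of all genes tested. Irf7, an interferon regulatory factor, was at 1576 and 1103 normalized counts in WT against 35.3 and 20.7 (log2 difference -5.55, SE 0.46, limma adjusted p = 0.0777). Stat2, a transducer of the interferon signal, was at 2503 and 2725 against 358 and 323 (log2 difference -2.94, SE 0.28, limma adjusted p = 0.0777). Both interferon genes were low to a like degree in the 2 labelled KO libraries. Tlr2, a receptor for bacterial lipoproteins, was at 2199 and 2155 against 55.7 and 573 (log2 difference -3.59, SE 1.06, limma adjusted p = 0.275). Tnf was at 30.9 and 127 against 2.14 and 16.2 (log2 difference -3.12, SE 1.14, limma adjusted p = 0.345). Tlr2 and Tnf were both higher in labelled KO replicate 2 than in replicate 1, as Cxcl10 and Cxcl5 were. Nfkbia and Tnfaip3, NF-kB targets that restrain the pathway, were chosen after their values were seen. Nfkbia was at 4445 and 4857 normalized counts in WT against 531 and 3119, and Tnfaip3 at 642 and 687 against 87.8 and 806. For Tnfaip3 the labelled KO libraries lay on either side of WT.

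Markers of the cells in the cultures differed along with the ligands. In bulk RNA, fewer cells of a type and less RNA per cell cannot be told apart. The astrocyte marker Gfap was at 58004 and 67297 normalized counts in WT, 174853 in labelled KO replicate 1 and 9945 in labelled KO replicate 2. The 9 astrocyte markers summed to 160% of the WT mean in replicate 1 and to 30.0% in replicate 2, but the 8 without Gfap summed to 71.8% and 40.4%. Both labelled KO libraries were below both WT libraries for 6 of the 9, beside 25.4% of all genes tested. Lower at an unadjusted p under 0.05 were 3 (Slc1a2, Gjb6 and Sox9), beside 9.18%. Of 18 microglial markers, 17 were tested and 13 were lower at an unadjusted p under 0.05, beside 9.18% of all genes tested. Both labelled KO libraries were below both WT libraries for 16, beside 25.4%. The microglial markers summed to 2954 and 5481 normalized counts in WT against 1114 and 704. The cultures thus expressed astrocyte markers, and microglial transcripts were present as well. The defining microglial genes P2ry12 (6.4 and 4.60 in WT against 0 and 0.901) and Tmem119 (2.13 and 38.6 against 8.56 and 1.80) were close to the floor in most libraries. Tmem119 was the only tested microglial marker whose groups overlapped. Other markers were well above the floor in WT, such as C1qa at 268 and 442 against 33.2 and 5.41. Csf1r was at 175 and 478 normalized counts in WT against 35.3 and 44.2.

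The ligands did not follow the microglial sum between the labelled KO libraries. That sum was 26.4% of the WT mean in replicate 1 and 16.7% in replicate 2, while the inflammatory CC ligands were at 1.03% and 72.9% and the ELR ligands at 0.544% and 25.6%. The part of the microglial RNA in the differences of the ligands between the labels was not tested. The 7 mural and fibroblast markers summed to 307% and 613% of the WT mean, most of it Acta2, at 1980 and 8903 normalized counts in WT against 22252 and 50185. The other 6 summed to 131% and 79.3%, and Dcn and Rgs5 were lower at an unadjusted p under 0.05 while Acta2 and Col1a2 were higher. Endothelial markers summed to 195% and 192% and oligodendrocyte lineage markers to 202% and 119%, with 0 genes of either list at an unadjusted p under 0.05. Most of the endothelial sum was Kdr in replicate 1 and Flt1 in replicate 2. Kdr was at 68.3 and 149 normalized counts in WT against 248 and 37.9, and Flt1 at 24.5 and 22.1 against 22.5 and 213. Without Kdr the other 4 endothelial markers summed to 97.8% and 651%. Neuronal markers summed to 93.6% and 116%, most of it Map2, and the other 5 to 309% and 507%. Tubb3 and Dcx were higher at an unadjusted p under 0.05, Tubb3 at 52.3 and 80.9 normalized counts in WT against 170 and 307. Lymphocyte markers summed to 2.70 to 6.44 normalized counts per library, and of the granulocyte markers S100a8 alone was measured, at 2.13 and 30.3 in WT against 0 and 1.80. The part of these cells in the ligand values was not tested either.

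**Figure D4:**
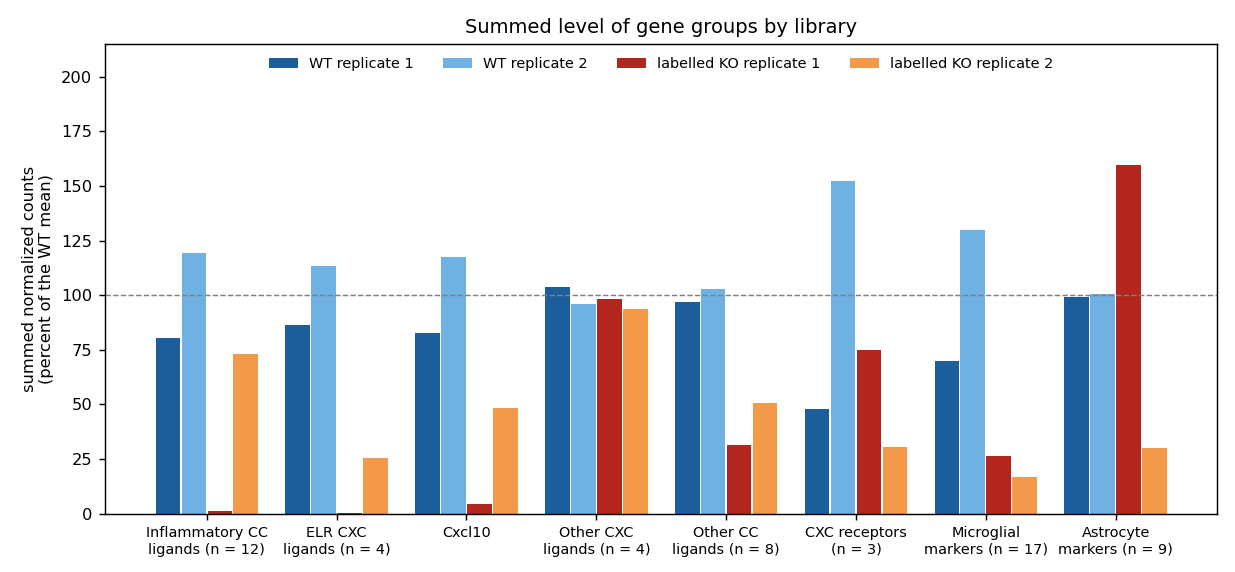
Summed normalized counts of the groups of members and of the microglial and astrocyte markers, 1 bar per library, in percent of the WT mean (dashed line at 100). Inflammatory CC and ELR CXC ligands were nearest 0 in labelled KO replicate 1, whereas the microglial markers were lowest in replicate 2 and the astrocyte markers highest in replicate 1, where most of their sum was Gfap.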

How the data were processed

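RNA was sequenced from 4 astrocyte libraries, grouped by the genotype and replicate number in the sample titles. The authors filtered paired-end reads and aligned them to mm10. The aligner, the counting program and its use of strand are not given in the sources used here. For each gene and library the authors deposited a signal value, called FPKM in the table's name. It is the number of reads over a factor of that library, and gene length does not enter: 100% were whole multiples of 1 read within 0.01 reads in each library, so reads were recovered. No gene at 0 in every library was listed, and the smallest sum was 2 reads. In the same deposited table, 5 other columns (group means, fold change and p-values) hold the authors' comparison and were not used.

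limma 3.58.1 (variance trend, R 4.3.3) was fitted to log2(normalized count + 1) for genes with a mean of at least 1, without a block, and Benjamini-Hochberg adjustment was made over all genes tested. Differences understate the change of low genes. edgeR 4.0.16 (quasi-likelihood) and DESeq2 1.42.0 were run on the reads as alternatives, the others being pseudocount, filter, scaling, variance trend, replicate block and leaving out each library. FPKM was computed from reads, gene lengths and total reads on genes. Antisense neighbours and coordinates came from GENCODE M21 on GRCm38, in which 36 of 38 members had the same start and end, and promoters came from RefSeq on GRCm38.p6.

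Every member with a mean of at least 10 normalized counts was named, and from each further list at most 4 genes of that level at an unadjusted p under 0.05, the largest by absolute log2 difference. Members and lists were chosen with earlier results of these data known. Sums without the highest marker of a list were added after its values were seen. So were the values of C1qa, Csf1r, Kdr, Flt1 and the higher genes of receptor signalling. The values of some members of low level are not reported here. Of the 21 members named, 7 overlap an antisense gene (Ccl2, Ccl6, Ccl25, Ccl27a, Cxcl10, Cxcl16 and Ccr10). Plots were made with Python 3.11.15 and matplotlib 3.10.9.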

Additional observations from a re-analysis of the deposited data

How the results depend on the processing

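The alternatives were DESeq2, edgeR, a pseudocount of 0.1, no filter or a mean minimum of 5, scaling to equal sums, quantile normalization, no variance trend, a replicate block and leaving out each library. Genes past an adjusted p under 0.05 numbered 0 under each of them that was run, except 1106 with DESeq2. Members lower at an unadjusted p under 0.05 were 13, against 9 to 14 under the alternatives that kept all libraries and 3 to 15 when a library was left out. Members higher went from 1 to 0 with DESeq2, edgeR, the mean minimum of 5, the pseudocount of 0.1 and the replicate block, and were 0 to 2 when a library was left out. With the replicate block 13 members were lower; same-numbered libraries did not deviate together (correlation -0.084). The median difference over members went from -1.83 to -2.76 with the mean minimum of 5 and to -2.62 with the pseudocount of 0.1, the former by its construction since fewer members are tested, and ranged from -2.32 to -1.24 when a library was left out. The DESeq2 count of 6 members ranged from 1 to 13 when a library was left out, an alternative chosen after seeing the data, and the share of all genes called lower ranged from 1.13% to 11.8%.

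Of 293 values of the 21 members under alternatives, 283 kept their direction and side of the threshold, 6 passed it (all DESeq2) and 4 turned direction. These were Cxcr4 without WT replicate 2 (0.060, from -1.68 when a library was left out), Ccl25 with quantile normalization (0.0072) and without labelled KO replicate 1 (0.053, from -0.69), and Ccl7 without labelled KO replicate 1 (0.38, from -5.89). Of genes that are no members, Tnfaip3 without labelled KO replicate 1 (0.28, from -2.91) and Tet1 without labelled KO replicate 2 (-0.051, to 1.36) turned. The cause was not tested. Quantile normalization moved the median of all genes by 0.14. With 2 libraries per label, outlying libraries within a group could not be tested, and the leukocyte receptors had too few reads for a comparison.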

Other observations

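Cxcl11, an interferon-induced ligand of Cxcr3, is listed as a polymorphic pseudogene and so was no member of the family as chosen. It was at 10.7 and 78.2 normalized counts in WT and at 0 and 0.901 in the labelled KO libraries, and both labelled KO libraries were below both WT libraries (log2 difference -4.46, SE 1.13, limma adjusted p = 0.233, DESeq2 adjusted p = 0.0125). Of the related genes that were not named by rule, Cx3cl1, the fractalkine ligand of Cx3cr1, was at 1654 and 4409 normalized counts in WT against 1433 and 4613, so that the libraries numbered 2 were the higher ones under both labels. Ackr1, an atypical receptor of venules and red cells, was at 19.2 and 68.0 against 33.2 and 39.7, and its groups overlapped. Both were chosen after their values were seen.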
